A study of Mus musculus with 6 samples.

Results

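The genes of major histocompatibility complex (MHC) class I and class II antigen presentation were followed through the cell classes of the mouse renal cortex and compared between WT and Prdm16 knockout (KO) mice. The members were chosen by symbol as matrix rows, 5 of class I (B2m, H2-K1, H2-D1, Tap1 and Nlrc5) and 5 of class II (Cd74, H2-Aa, H2-Ab1, H2-Eb1 and Ciita), and these 10 of the 26903 genes with a row all had UMIs in each of the 6 libraries. Single cells were sequenced on the BD Rhapsody microwell system, which marks each captured RNA molecule by a short random tag, the unique molecular identifier (UMI), and counts its PCR copies once. The renal cortex of 3 WT mice and 3 mice with a global knockout of Prdm16 was profiled at 9 months of age, 1 library per mouse. All 6 mice were labelled male, and the labels name no treatment. The knockout mice lacked an exon of Prdm16 in all cells, a deletion made with CRISPR-Cas9 that shifts the reading frame of the exons after it.

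MHC class I molecules stand on nearly all nucleated cells and show peptides made inside the cell to CD8+ T cells. H2-K1 and H2-D1 encode the classical heavy chains of the mouse, B2m encodes the light chain that every class I molecule needs, Tap1 encodes a subunit of the transporter that brings peptides into the endoplasmic reticulum, and Nlrc5 encodes the transactivator of class I genes. MHC class II molecules present peptides taken up from outside to CD4+ T cells, and they are made mainly by dendritic cells, macrophages and B cells, while interferon gamma can induce them in other cells such as endothelium. H2-Aa and H2-Ab1 encode the chains of the I-A molecule and H2-Eb1 the beta chain of I-E, Cd74 encodes the invariant chain that guards the peptide groove until it is loaded, and Ciita encodes the class II transactivator. H2-K1 and H2-D1 are close copies of each other and of other class I genes, so that their separate counts are uncertain.

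In GENCODE vM21 on GRCm38, 6 of the 10 genes lay on chromosome 17, between 33996017 and 35267499, in the MHC region itself. These were H2-K1 (33996017 to 34000347, minus strand), Tap1 (34187553 to 34197225), H2-Ab1 (34257689 to 34269419), H2-Aa (34282744 to 34287823, minus strand), H2-Eb1 (34305867 to 34316674) and H2-D1 (35262730 to 35267499). Outside it lay, among others, B2m (chromosome 2, 122147686 to 122153083), Nlrc5 (chromosome 8, 94434356 to 94527272) and Ciita (chromosome 16, 10480059 to 10528418).

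Promoters of class I and class II genes share a module, read by RFX, CREB and NF-Y proteins together with Nlrc5 or Ciita, in which an X2 box is followed by a Y box at a nearly fixed distance. The stretches of 130 bases just before the RefSeq start (GRCm38.p6, 5′ to 3′ on the strand of the gene) are shown for the 5 members that held such a pair of boxes, since they come from both classes and show the arrangement that class I and class II genes share. Capitals mark the letters TGANG of an X2-like box and ATTGG of the Y box, 19 to 21 bases apart for the nearest copy.
B2m (chr2:122147557-122147686, plus strand): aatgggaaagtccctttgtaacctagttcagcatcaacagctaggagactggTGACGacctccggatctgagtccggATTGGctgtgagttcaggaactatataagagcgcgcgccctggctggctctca
H2-K1 (chr17:34000348-34000477, minus strand): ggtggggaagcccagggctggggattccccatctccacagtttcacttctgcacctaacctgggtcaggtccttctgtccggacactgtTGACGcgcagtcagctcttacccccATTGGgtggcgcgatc
H2-D1 (chr17:35262964-35263093, plus strand): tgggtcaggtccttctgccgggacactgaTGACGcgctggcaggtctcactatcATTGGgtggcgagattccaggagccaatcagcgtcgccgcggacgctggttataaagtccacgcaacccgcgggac
H2-Aa (chr17:34287824-34287953, minus strand): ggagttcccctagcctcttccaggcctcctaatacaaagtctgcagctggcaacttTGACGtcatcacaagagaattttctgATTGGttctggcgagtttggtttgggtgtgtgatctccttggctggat
H2-Eb1 (chr17:34305737-34305866, plus strand): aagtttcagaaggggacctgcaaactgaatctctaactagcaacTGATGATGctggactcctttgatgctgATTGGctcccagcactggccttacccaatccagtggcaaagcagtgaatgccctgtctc

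In H2-Eb1 2 copies of TGANG overlap, so that a longer run is in capitals. The RefSeq start of H2-D1 lies inside the GENCODE gene given above. The RefSeq promoter windows (250 bases before to 50 after a start) covered 6 of the 10 members, and Cd74, H2-Ab1, Nlrc5 and Ciita were not analysed here. TGANG followed by ATTGG within 18 to 22 bases, on either strand, was held by 5 of these 6 members and by 1.44% of all 32851 windows. Tap1 lacked the pair. ATTGG alone was in all 6 and in 37.4% of all windows, and it is part of the pair. The interferon-stimulated response element written as GAAA and GAAA with 2 bases between them was found in 1 of the 6, B2m, and in 3.44% of all windows. The gamma-activated site TTCNNNGAA was found in 0 of the 6 and in 8.298% of all windows, which says only that these letters were not in these windows. A match is a description of letters and does not show binding.

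The matrices held 168106 to 208226 barcodes and 96382945 to 121198131 UMIs per library, and 28303 cells were retained, 3505 to 6240 per library with 22928919 to 35226865 UMIs. No library pair shared more than 2 barcodes of retained cells. Prdm16 itself, over all retained cells, was at 26.8 to 32.2 CPM (counts per 1000000 UMIs) in WT and 20.99 to 25.03 CPM in KO, and the counts do not show which exon a UMI came from. WT replicate 2 and KO replicate 1 went against their male labels. They held 298 and 306 CPM of Xist, an RNA of the silenced X chromosome in females, where the other libraries held at most 0.218 CPM, and their summed level of Y-linked genes was 0.0568 and 0.0617 CPM against 110.1 to 133 CPM. Each group has 1 such library, and the called genes and the class II genes of peritubular and arterial endothelium are also given without both. KO replicate 1 also stood apart in free RNA. In barcodes under 100 UMIs, which hold mostly RNA from outside cells, H2-K1 was at 1062 CPM in KO replicate 1 and 383 to 539 CPM in the other 5 libraries.

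Cells were grouped into 19 classes named by their resemblance to marker genes, with the member genes and their partners left out of the clustering. The tubule was represented by proximal convoluted tubule (PCT), thin limb and parietal cells, thick ascending limb (TAL), macula densa, distal convoluted tubule (DCT), connecting tubule (CNT), principal cells (PC) and intercalated cells (IC). The other classes were podocytes, glomerular, peritubular and arterial endothelium, stromal and mesangial cells, macrophages, monocytes, B, T and NK cells and neutrophils. PCT, the main cell type of the cortex, gave only 373 of the retained cells. A cluster called principal cells also carried the CNT marker Trpv5, and the 55 cells called monocytes also carried dendritic cell markers such as Xcr1. Cells of 2 leukocyte clusters (206 and 145 cells) stayed unnamed. Names are resemblances, and "like" is left out below for brevity.

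Class II transcripts were concentrated in macrophages and B cells, with peritubular endothelium the highest of the classes outside the leukocytes. Cd74 in macrophages was at 25533, 23183 and 23869 CPM (WT replicates 1 to 3) and 24815, 23492 and 21686 CPM (KO replicates 1 to 3). H2-Aa was at 14084, 12801 and 12431 (WT) against 13048, 11596 and 11789 (KO) CPM, H2-Ab1 at 13916, 13324 and 12096 (WT) against 11543, 10966 and 9707 (KO) CPM and H2-Eb1 at 11944, 11466 and 10602 (WT) against 10104, 9254 and 9141 (KO) CPM. KO overlapped WT for Cd74 and H2-Aa, while for H2-Ab1 and H2-Eb1 each KO library lay below each WT library. B cells came next among the classes with at least 10 cells in 5 or more libraries, with 8467 ± 794 CPM of Cd74 and 4067 ± 534 CPM of H2-Ab1 (SD over the 5 libraries with at least 10 cells). Their H2-Ab1 level stood apart from that of the class below, peritubular endothelium, with no overlap between libraries (513 ± 335 CPM, SD, n = 6). The monocyte class could not be placed, because its H2-Ab1 level was 206 CPM in WT replicate 1 and 10744 CPM in WT replicate 2, the libraries with at least 10 of its cells. Both unnamed leukocyte clusters were of the class II kind, with 6623 to 15529 CPM and 10870.4 to 15469.6 CPM of H2-Ab1 over the libraries.

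Below the leukocytes, H2-Ab1 was ordered as peritubular endothelium (513 ± 335 CPM), PCT (188 ± 176 CPM), arterial endothelium (141 ± 103 CPM) and glomerular endothelium (59.1 ± 38.1 CPM; SD, n = 6). Neighbours in this order overlapped between libraries, so the order is that of the means alone. The place of PCT is uncertain, as its libraries ran from 55.0 to 479 CPM and KO replicate 1 held only 10 of its cells with 18797 UMIs. Cd74, H2-Aa and H2-Eb1 also placed peritubular above arterial endothelium and arterial above glomerular. Ciita, the transactivator, was at 79.6 ± 27.5 CPM in macrophages (SD, n = 6), 67.9 ± 30.5 CPM in B cells (SD, n = 5) and 15.2 ± 12.5 CPM in peritubular endothelium (SD, n = 6). Its mean in PCT, 28.2 ± 64.4 CPM, came from 7 UMIs. It had 36 UMIs in peritubular endothelium in all and 0 in podocytes, DCT, thin limb and parietal, T and NK cells. TAL, macula densa, DCT, CNT, PC, IC and podocytes each had a mean of under 10 CPM for every class II chain and Cd74. These levels were below those of the barcodes under 100 UMIs, where Cd74 was at 77.2 to 185 CPM and H2-Ab1 at 25.6 to 112 CPM over the libraries, and they are read as background.

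**Figure D1:**
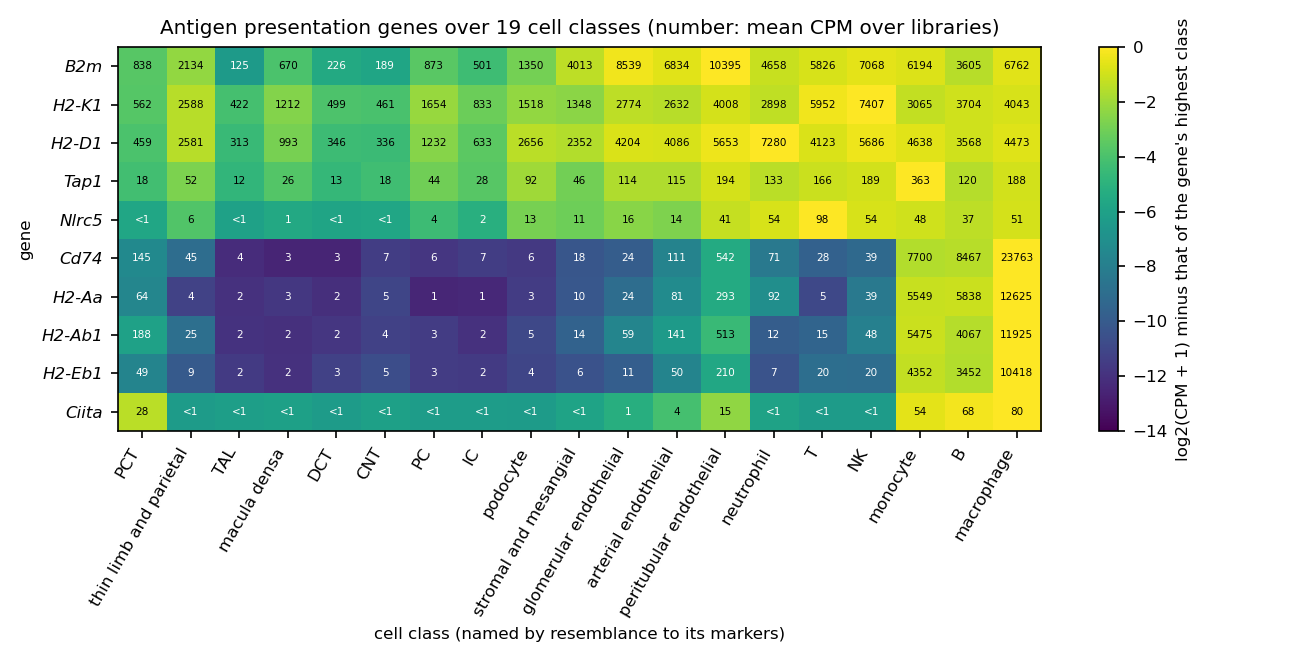
Mean CPM of each member gene (rows) in 19 cell classes (columns) over the libraries with at least 10 cells of the class. Colour gives log2(CPM + 1) relative to the highest class of the same gene, so that rows are not compared in level. Class II genes are bright in the last 3 columns (monocyte, B and macrophage), and Cd74, H2-Aa, H2-Ab1 and H2-Eb1 next in peritubular endothelium. The B2m, H2-K1 and H2-D1 rows span a narrower range over the columns than the Cd74 row.

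UMIs of B2m, H2-K1 and H2-D1 were present in every class. B2m was highest in peritubular endothelium (10395 ± 2097 CPM) and glomerular endothelium (8539 ± 2492 CPM) and lowest in TAL (125 ± 60.1 CPM; SD, n = 6), 83.2-fold between the extremes of the means. For H2-K1 the range was 17.6-fold, from NK cells (7407 ± 794 CPM, SD over 4 libraries) down to TAL (422 ± 103 CPM, SD, n = 6). H2-D1 ranged 23.3-fold and was highest in neutrophils (7280.2 ± 2305 CPM, SD over 5 libraries). The ratio was 29.4 for Tap1 and 182 for Nlrc5, against 8163 for Cd74 and 10361 for H2-Aa. The TAL, DCT and CNT means of B2m, H2-K1 and H2-D1 lay below the means of the barcodes under 100 UMIs (449.8 CPM of B2m, 566 CPM of H2-K1 and 528 CPM of H2-D1) and are read as background. Of the 18 steps between neighbouring classes in the order of B2m, 17 overlapped between libraries, and the exception was the step from B cells down to thin limb and parietal cells. For H2-K1 all 18 overlapped. Tap1 was highest in monocytes (2 libraries) and then in peritubular endothelium (194 ± 78.5 CPM, SD, n = 6), and Nlrc5 in T cells (97.9 ± 23.1 CPM, SD, n = 6). Among epithelial classes thin limb and parietal cells had the most B2m (2134 ± 729 CPM) and podocytes had 2656 ± 1549 CPM of H2-D1 (SD, n = 6).

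The share of cells with a UMI of a gene was set at equal depth, by thinning each cell to 500 UMIs, since the median cell held 8607 UMIs in TAL and 1042 in peritubular endothelium. After thinning, Cd74 was seen in 98.9 to 99.98% of macrophages over the libraries, in 6.08 to 50.98% of peritubular, 1.32 to 15.3% of arterial and 0 to 2.34% of glomerular endothelial cells, and in 0.225 to 0.642% of TAL cells, which should lack it (10.9 to 70.7% of peritubular and 1.21 to 3.47% of TAL cells without thinning). KO replicate 1 was the highest library in peritubular, arterial and glomerular endothelium and in TAL. The peritubular share was above every TAL and glomerular share in each library. The arterial shares of 1.32, 1.34 and 1.99% in WT and 15.3, 3.19 and 2.59% in KO were above every TAL share, while those of WT lay within the glomerular range. H2-K1 was seen in 81.6% of peritubular endothelial cells, 48.9% of podocytes and 20.04% of TAL cells after thinning.

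Across the means of the 19 classes, log2(CPM + 1) of H2-K1 followed H2-D1 (Pearson r 0.937), Nlrc5 (0.923), Tap1 (0.912) and B2m (0.907). H2-Ab1 followed Cd74 (0.978), H2-Eb1 (0.978), H2-Aa (0.965) and Ciita (0.938). Between the sets the r of H2-K1 with H2-Ab1 was 0.5301. Among all genes outside the lists, those with a closely similar profile included Tpm3 (0.956), Atad2, Pcna and Git2 (0.9295) for H2-K1 and Trim25 (0.872), P2ry10b, Dhx58, Daxx and Cd180 (0.846) for H2-Ab1. These correlations are descriptions over 19 classes that share the same 6 libraries, and the classes are not independent.

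The classes that supplied the transcripts of the suspension differed between the sets. Leukocytes gave 92.98% of all H2-Ab1 UMIs of retained cells (range 85.5 to 96.96% over the 6 libraries), macrophages alone 74.2%. Endothelium gave 1.03, 1.699 and 2.27% in WT and 12.8, 5.15 and 7.31% in KO, higher in each KO library than in any WT library. For Ciita the endothelial part was 0.800, 5.06 and 5.56% in WT and 42.7, 10.96 and 21.2% in KO, again without overlap. The Ciita parts rest on few UMIs. WT replicate 1 also held 122 of the 206 cells of an unnamed leukocyte cluster that had 70 UMIs of Ciita. Of H2-K1 UMIs, epithelial classes gave 70.6%, leukocytes 14.7% and endothelium 12.9%, and of B2m UMIs endothelium gave 34.2%. These parts move with the number of cells kept of each class as well as with the level per cell.

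**Figure D2:**
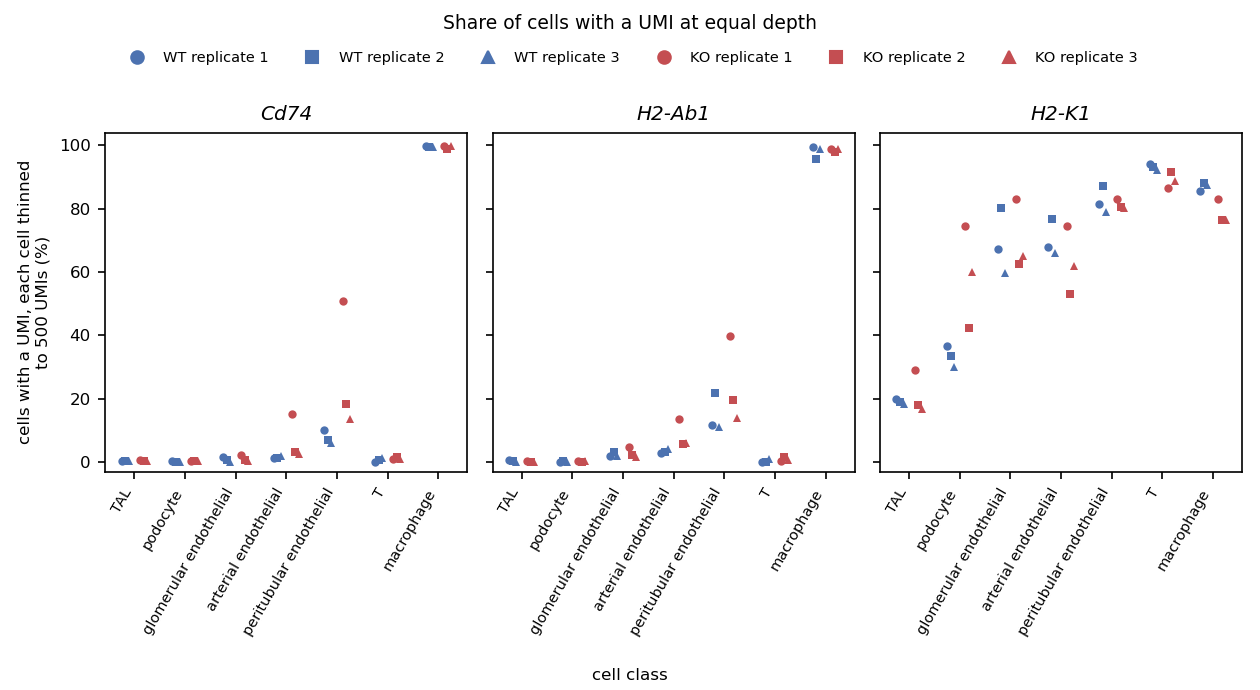
Share of cells with at least 1 UMI of Cd74, H2-Ab1 and H2-K1 (percent, vertical axis) in 7 cell classes (horizontal axis) after thinning each cell to 500 UMIs, 1 point per library (blue WT, red KO). For Cd74 the TAL, podocyte, glomerular and T cell points lie near 0, macrophages near 100, and peritubular endothelium spreads from 6.08 to 50.98%, with the 3 KO libraries above the 3 WT libraries.

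WT and KO were then compared within the 14 classes that had at least 20 cells in every library, on UMIs summed per library and class. Over these classes 92 tests of member genes could be fitted, and 7 had an adjusted p under 0.05 in edgeR (36 at an unadjusted p under 0.05), 6 higher and 1 lower in KO, where 1.52% of all gene tests in these classes were called. They were Cd74 and H2-Aa in peritubular endothelium, B2m, H2-K1 and H2-D1 in CNT, H2-K1 in podocytes, all higher, and H2-Ab1 in TAL, which was lower. Left out 1 at a time, the libraries moved this count to 2 (WT replicate 1 left out), 1 (WT replicate 3), 2 (KO replicate 1) and 16 (KO replicate 2), and it was 5 without both libraries that carried Xist. DESeq2 called 4. Shares of all genes called are those of edgeR at an adjusted p, unless DESeq2 is named. The share of all genes at an unadjusted p is not given, so counts at an unadjusted p stand without one. Fold changes come from library sizes scaled by TMM and can differ from the ratio of the CPM values beside them. A gene was fitted only where its counts were high enough in 3 libraries, so that a gene high in KO alone could enter through KO. The share of all genes without overlap was 5.23% (higher in KO) in arterial endothelium and 12.4% (higher in KO) in podocytes. It was 9.47% (lower in KO) in macrophages and is not given for other classes, where a lack of overlap only describes the libraries.

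In peritubular endothelium Cd74 and H2-Aa were higher in KO, the invariant chain and the alpha chain of I-A. Cd74 was at 215, 161 and 174 CPM (WT replicates 1 to 3) and 1839, 499.9 and 366 CPM (KO replicates 1 to 3). All KO libraries lay above all WT libraries, as for 2 of the 9 members fitted, and KO replicate 1 was far above the rest. The share of all genes without overlap is not given for this class. Means were 183 ± 28.3 (WT) and 901 ± 815 CPM (KO; SD, n = 3 per group), with edgeR log2 fold change 2.24, SE 0.44, adjusted p 0.0349. H2-Aa was at 122, 207 and 99.6 (WT) against 676, 369.8 and 285 (KO) CPM, again without overlap (edgeR log2 fold change 1.65, SE 0.31, adjusted p 0.0349). H2-Ab1 was at 299, 522 and 254 (WT) against 1159.6, 509 and 335 (KO) CPM and H2-Eb1 at 114, 194 and 54.8 (WT) against 544, 210.0 and 145 (KO) CPM. For both, WT replicate 2 overlapped the KO range, and neither test passed, with log2 fold changes of 0.89 (adjusted p 0.456) for H2-Ab1 and 1.35 (adjusted p 0.268) for H2-Eb1. Of 9 members fitted there 2 were called, where 0.337% of all genes tested were. Ciita was not fitted, with 0, 20.1 and 4.98 (WT) against 35.6, 13.7 and 16.7 (KO) CPM, and WT replicate 2 lay within the KO range.

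Both calls were lost without KO replicate 1, where Cd74 was at 1.22 (adjusted p 0.0646) and H2-Aa at 1.23 (adjusted p 0.148) on the log2 scale. Cd74 was also lost without WT replicate 2, at 2.15 (adjusted p 0.0819), or WT replicate 3, at 2.19 (adjusted p 0.0541), and H2-Aa without WT replicate 1, at 1.54 (adjusted p 0.0524), or WT replicate 3, at 1.44 (adjusted p 0.0614). Without both libraries that carried Xist, H2-Aa kept its call at 1.54 (adjusted p 0.0146), while Cd74 at 1.14 (adjusted p 0.0796), H2-Ab1 at 0.59 (adjusted p 0.6802) and H2-Eb1 at 1.04 (adjusted p 0.397) were not called. With all libraries kept and a block for those that carried Xist, edgeR called Cd74, H2-Aa and H2-Eb1, where it called 48 of all 4449 genes. DESeq2 called H2-Aa, at 1.61 (adjusted p 0.00316), and not Cd74, at 2.23 (adjusted p 0.193), where it called 21 of all 4449 genes. At a mitochondrial limit of 30% both calls were lost, with Cd74 at 2.20 (adjusted p 0.0716) and H2-Aa at 1.54 (adjusted p 0.0716). Cd74 was lost with classes from marker scores, at 2.42 (adjusted p 0.08204), and H2-Aa with doublets kept, at 1.47 (adjusted p 0.0597). The direction was higher in KO in each of these fits.

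The share of cells with a transcript moved with the level. After thinning to 500 UMIs Cd74 was seen in peritubular endothelial cells at shares of 10.1, 7.08 and 6.08% in WT and 50.98, 18.2 and 13.7% in KO, and H2-Aa at 6.77, 10.2 and 4.34% in WT and 25.6, 13.3 and 11.2% in KO, so that in both the KO libraries lay above the WT libraries. The 8 macrophage markers summed to 0 to 21.1 CPM in WT and 0 to 2.79 CPM in KO in this class, with C1qa, C1qc, Adgre1 and Fcgr1 at 0. Leukocyte UMIs (Ptprc, C1qa, C1qb, Lyz2, Cd79a or Cd3e) were held by 0.575% of its cells, and without those cells Cd74 was at 2.25 (adjusted p 0.0410) and H2-Aa at 1.67 (adjusted p 0.0393). The 6 neutrophil markers moved with genotype, from 0 to 4.98 CPM in WT to 39.1 to 112 CPM in KO, beside neutrophils at 27.3 to 116 CPM of Cd74 in the libraries with any. Some genes on the marker lists of dendritic cells, which are rich in class II, had UMIs too, which does not by itself show RNA of dendritic cells. Those of conventional type 1 summed to 71.6, 86.95 and 29.9 (WT) against 121, 61.6 and 89.3 (KO) CPM, with Xcr1 and Wdfy4 at 0. Those of conventional type 2 summed to 58.99, 80.3 and 84.6 (WT) against 55.1, 130.1 and 58.6 (KO) CPM, with Cd209a, Clec10a, Flt3, Itgax and Kmo at 0. WT and KO overlapped in both sums. Cd74 in barcodes under 100 UMIs was at 185, 83.3 and 77.2 (WT) against 164, 105 and 116 (KO) CPM, with overlap between the groups. The class also held more of the retained cells in KO, 3.58, 2.17 and 3.77% in WT and 6.57, 9.301 and 9.27% in KO (exact permutation p 0.1, two-sided; 3 against 3 can give no smaller p). Whether the neutrophil or dendritic cell markers or the share of cells play a part in the class II levels was not tested.

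In arterial endothelium edgeR called no member in the main fit. H2-Ab1 was at 66.9, 77.7 and 85.6 (WT) against 343, 137 and 135 (KO) CPM, Cd74 at 41.1, 36.2 and 48.9 (WT) against 411, 73.9 and 55.8 (KO) CPM and H2-Aa at 44.1, 46.6 and 31.5 (WT) against 223, 61.6 and 81.7 (KO) CPM. The groups did not overlap in these 3 of the 8 members fitted, with KO replicate 1 the highest, where 5.23% of all genes were higher in KO without overlap. Their log2 fold changes were 1.49 (adjusted p 0.0628), 2.21 (adjusted p 0.1695) and 1.69 (adjusted p 0.106), and that of H2-Eb1 was 1.70 (adjusted p 0.249). Barcodes under 100 UMIs held 185, 83.3 and 77.2 (WT) against 164, 105 and 116 (KO) CPM of Cd74. Arterial Cd74 lay below these in all libraries but KO replicate 1. They held 119, 73.3 and 55.4 (WT) against 101, 61.9 and 25.6 (KO) CPM of H2-Aa. Arterial H2-Aa lay below these in each WT library and KO replicate 2. Arterial H2-Ab1 lay below them only in WT replicate 1. The part of free RNA was not tested. Of 8 members fitted 0 were called by edgeR, where 0.441% of all genes were called. An unadjusted p under 0.05 was reached by 4, for which no share of all genes is given. DESeq2 called 2, H2-Aa and H2-Ab1, where it called 34 of all 6572 genes. Without KO replicate 1 the values were 0.90 (adjusted p 0.191) for H2-Ab1 and 0.71 (adjusted p 0.547) for Cd74. Leaving out both libraries that carried Xist gave 0.92 (adjusted p 0.186) for H2-Ab1, 0.62 (adjusted p 0.675) for Cd74, 0.97 (adjusted p 0.330) for H2-Aa and 0.79 (adjusted p 0.749) for H2-Eb1. With all libraries kept and a block for those that carried Xist, edgeR called Cd74, H2-Aa and H2-Ab1, where it called 67 of all 6572 genes. The neutrophil markers in arterial endothelium summed to 0 to 6.09 (WT) against 7.97 to 36.97 (KO) CPM, without overlap. The T cell markers went the other way, at 18.3 to 34.95 (WT) against 5.98 to 7.70 (KO) CPM, also without overlap. The part of either was not tested. In glomerular endothelium H2-Ab1 was at 31.6, 71.5 and 22.5 (WT) against 129, 51.1 and 49.4 (KO) CPM (log2 fold change 0.91, adjusted p 0.759) and H2-Aa at 50.6, 22.5 and 2.25 (WT) against 53.97, 11.4 and 4.49 (KO) CPM (log2 fold change 0.72, adjusted p 0.958), with overlap in both, and 0 of 6 members were called there by edgeR, 0 at an unadjusted p under 0.05 and 0 by DESeq2 (0.171% of all genes by edgeR). Over all 6 libraries, the glomerular means of both class II genes lay below those of the barcodes under 100 UMIs. H2-Aa did so in every library. Glomerular H2-Ab1 lay above those barcodes in WT replicate 2 (71.5 against 68.7 CPM), KO replicate 1 (129 against 97.7 CPM) and KO replicate 3 (49.4 against 25.6 CPM), and below them in the others.

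With the 3 endothelial classes summed, a comparison added after seeing the data, H2-Aa passed the threshold with a log2 fold change of 1.796 (adjusted p 0.0175), while the log2 fold changes of 2.38 (adjusted p 0.0530) for Cd74, 1.32 (adjusted p 0.0714) for H2-Ab1 and 1.70 (adjusted p 0.0757) for H2-Eb1 did not pass in edgeR. Thus edgeR called 1 of 9 members, where it called 0.229% of all genes. DESeq2 called 4, where it called 64 of all 8729 genes. The mean share of retained cells was higher in KO for all 3 classes. It was 3.17% (WT) against 8.38% (KO) for peritubular, 4.65 against 7.36% for glomerular and 5.24 against 6.66% for arterial endothelium. H2-Aa was at 1.53 (adjusted p 0.0384) without both libraries that carried Xist and at 1.42 (adjusted p 0.0663) without KO replicate 1.

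**Figure D3:**
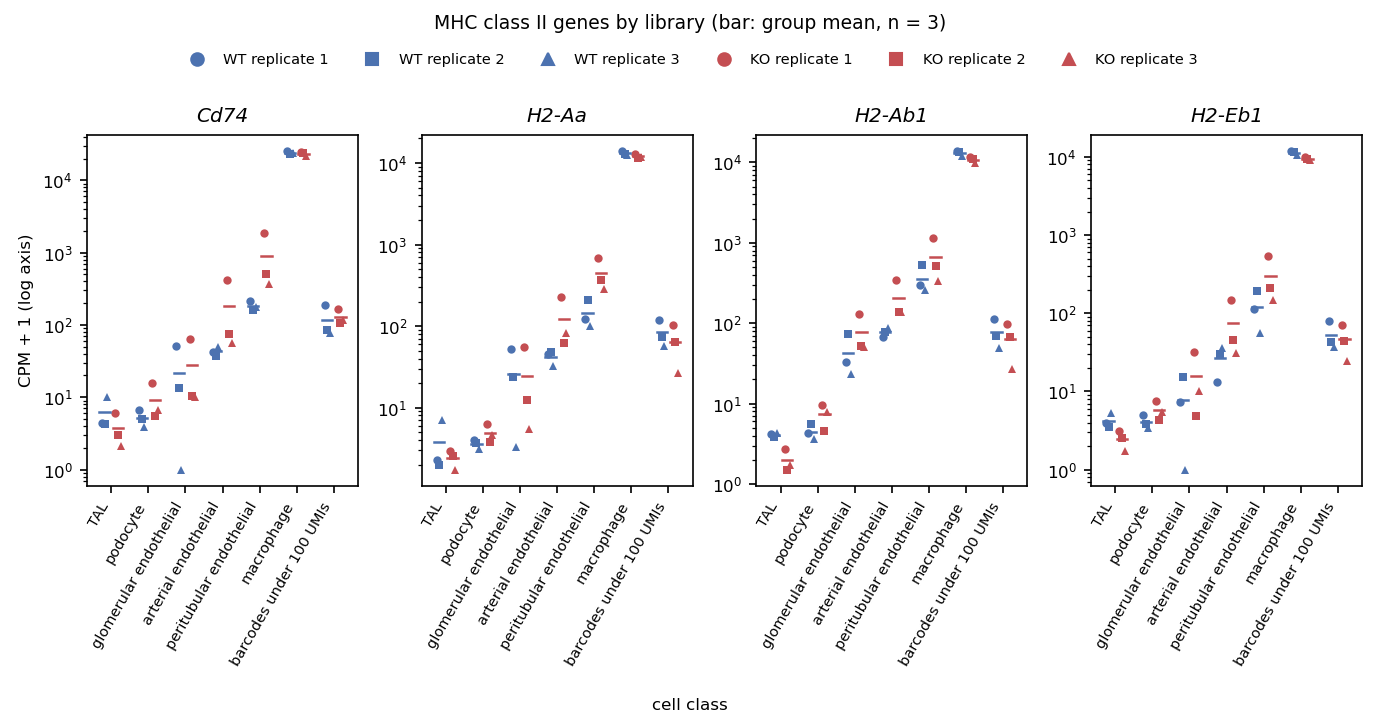
CPM + 1 (log axis) of 4 class II genes in 6 cell classes and in barcodes under 100 UMIs, 1 point per library (blue WT, red KO; shape gives the replicate number) with the group mean as a bar. In peritubular and arterial endothelium KO replicate 1 is the highest point in every panel and the KO means lie above the WT means, while macrophage points lie close together.

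Macrophages, the class with the most class II transcript, had no called member. Cd74 was at 24195 ± 1209 (WT) and 23331 ± 1571 CPM (KO; SD, n = 3 per group), with a fitted log2 fold change of 0.04 (adjusted p 0.952), and H2-Aa was at −0.01 (adjusted p 0.988). H2-Ab1 was at 13112 ± 929 (WT) and 10738 ± 939 CPM (KO; SD, n = 3 per group) and H2-Eb1 at 11337 ± 680.3 (WT) and 9499.8 ± 526 CPM (KO; SD, n = 3 per group). Both were lower in each KO library than in any WT library in CPM, with fitted values of −0.19 (adjusted p 0.679) and −0.16 (adjusted p 0.756). Ciita was at 106, 76.6 and 67.04 (WT) against 46.0, 118 and 63.4 (KO) CPM, with overlap (log2 fold change −0.02, adjusted p 0.992). The difference between the genotype effects was tested directly, as an interaction of genotype and class in edgeR, blocked on the mouse. The log2 fold change in the summed endothelium exceeded that in macrophages by 1.76 (SE 0.26, adjusted p 2.64e-04) for H2-Aa, 2.09 (SE 0.32, adjusted p 4.20e-04) for Cd74, 1.72 (SE 0.30, adjusted p 0.00253) for H2-Eb1 and 1.43 (SE 0.25, adjusted p 0.00285) for H2-Ab1. These 4 of 10 members were called, where 0.162% of all genes were, and Ciita at 2.21 (SE 0.73, adjusted p 0.377) and the class I members were not. Without both libraries that carried Xist the differences were 1.59 (adjusted p 0.00241), 1.30 (adjusted p 0.0336), 1.43 (adjusted p 0.0336) and 1.18 (adjusted p 0.0831) in the same order.

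Against TAL the differences were 3.38 (SE 0.37, adjusted p 5.11e-06) for Cd74, 3.00 (SE 0.36, adjusted p 1.56e-05) for H2-Ab1, 2.93 (SE 0.57, adjusted p 0.00565) for H2-Aa and 2.84 (SE 0.41, adjusted p 1.68e-04) for H2-Eb1 (0.923% of all genes called). The TAL side of these values is at background level, and H2-Aa was too low in TAL to be fitted there alone, so that they measure no genotype effect on class II genes in TAL. H2-Ab1 in TAL was at 3.15, 2.79 and 3.32 (WT) against 1.69, 0.5097 and 0.737 (KO) CPM, from 17, 17, 25, 8, 3 and 6 UMIs in the same order of libraries, below the level of the barcodes under 100 UMIs in every library. This was the call of TAL (edgeR log2 fold change −1.73, SE 0.41, adjusted p 0.0328), 1 of 7 members fitted, where 4.24% of all genes were called. Without both libraries that carried Xist it was at −2.29 (adjusted p 0.0381). With doublets kept it was at 0.07 (adjusted p 0.971), in DESeq2 at −1.72 (adjusted p 0.0620), and it was lost when any 1 library other than KO replicate 1 was left out (adjusted p 0.0665 to 0.153). The summed markers of B cells in TAL were 5.75, 0.658 and 9.84 (WT) against 1.27, 0.8496 and 0.369 (KO) CPM, with overlap. Those of macrophages, at 1.46 to 2.96 (WT) against 3.39 to 5.27 (KO) CPM, were higher in KO without overlap. So were those of neutrophils, at 0.399 to 0.822 (WT) against 1.72 to 7.41 (KO) CPM. Whether any of these markers play a part was not tested.

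The class I genes B2m, H2-K1 and H2-D1 were called higher in KO in CNT, and H2-K1 in podocytes, above all in KO replicate 1. The CNT means of these genes are read as background above, so the CNT calls are not read as a genotype effect in CNT cells. In CNT, H2-K1 was at 273, 318 and 253 CPM (WT replicates 1 to 3) and 1063, 401 and 456 CPM (KO replicates 1 to 3). The groups did not overlap, and KO replicate 1 was more than 2 times any other library. For CNT the share of all genes without overlap is not given. The means were 281 ± 32.8 (WT) and 640.2 ± 368 CPM (KO; SD, n = 3 per group), with edgeR log2 fold change 1.19, SE 0.23, adjusted p 0.00728. H2-D1 in CNT was at 201, 268 and 176 (WT) against 748, 306 and 317 (KO) CPM, without overlap (edgeR log2 fold change 1.10, SE 0.23, adjusted p 0.0132), and B2m at 85.6, 138 and 67.9 (WT) against 532, 125 and 188 (KO) CPM, where WT replicate 2 overlapped KO replicate 2 (edgeR log2 fold change 1.56, SE 0.33, adjusted p 0.0149). Tap1 was at 12.3, 15.3 and 9.00 (WT) against 45.2, 5.65 and 19 (KO) CPM (log2 fold change 1.10, adjusted p 0.195). Of 6 members fitted in CNT 3 were called, where 2.21% of all genes were, and DESeq2 called 0.

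Without KO replicate 1, H2-K1 in CNT kept its call at 0.68 (adjusted p 0.0295), while H2-D1 at 0.61 (adjusted p 0.0990) and B2m at 0.78 (adjusted p 0.1796) did not. H2-D1 and B2m were also lost without WT replicate 1, at 1.05 (adjusted p 0.0558) and 1.48 (adjusted p 0.0598), or WT replicate 3, at 1.00 (adjusted p 0.0716) and 1.38 (adjusted p 0.0794). Without both libraries that carried Xist all 3 were called, at 0.75 (adjusted p 0.0121), 0.77 (adjusted p 0.00928) and 1.09 (adjusted p 0.00587). At a mitochondrial limit of 30% none was, with H2-K1 at 0.71 (adjusted p 0.686). In every library the level in CNT was below that of the barcodes under 100 UMIs for B2m and H2-D1, and for H2-K1 in all but KO replicates 1 and 2. In those barcodes B2m was at 302, 499 and 284 (WT) against 982, 303 and 329 (KO) CPM, and H2-K1 at 456, 539 and 455 (WT) against 1062, 383 and 504 (KO) CPM, also highest in KO replicate 1. The part of free RNA in the CNT difference was not tested.

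Podocytes, the filtering cells of the glomerulus, had H2-K1, H2-D1 and B2m above the level of the barcodes under 100 UMIs. H2-K1 was at 978, 872 and 748 (WT) against 3246, 1226 and 2041 (KO) CPM (edgeR log2 fold change 1.30, SE 0.27, adjusted p 0.0369) and H2-D1 at 1926, 1606 and 1418 (WT) against 5528, 2197 and 3259 (KO) CPM (edgeR log2 fold change 1.12, SE 0.26, adjusted p 0.0558). In both each KO library lay above each WT library, as 12.4% of all genes did, in the order KO replicate 1, 3 and 2. B2m was at 622, 869 and 501 (WT) against 3275, 831 and 2001 (KO) CPM, with KO replicate 2 within the WT range (log2 fold change 1.59, adjusted p 0.0584), Tap1 at 1.21 (adjusted p 0.218) and Nlrc5 at 1.54 (adjusted p 0.176). Of 9 members fitted 1 was called by edgeR, where 1.8% of all genes were called. An unadjusted p under 0.05 was reached by 7, for which no share of all genes is given. H2-K1 was at 0.94 (adjusted p 0.126) without both libraries that carried Xist, and its call was lost without any 1 library other than KO replicate 2 (adjusted p 0.0657 without KO replicate 1 to 0.129 without WT replicate 2). The share of podocytes with an H2-K1 UMI after thinning was 36.8, 33.5 and 30.2% in WT and 74.4, 42.3 and 59.9% in KO, without overlap. The 6 neutrophil markers summed to 0.656 to 1.67 CPM in WT podocytes and 6.06 to 25.3 CPM in KO. The markers of conventional dendritic cells of type 1 (6.33 to 8.905 (WT) against 10.9 to 11.7 (KO) CPM) and type 2 (26.7 to 32.5 (WT) against 35.2 to 43.5 (KO) CPM) and of monocytes (0.786 to 1.33 (WT) against 3.23 to 3.62 (KO) CPM) also did not overlap, and the part of any of these was not tested. H2-D1 in podocytes was at 0.73 (adjusted p 0.209) and B2m at 1.36 (adjusted p 0.124) when both libraries that carried Xist were left out. With all libraries kept and a block for those that carried Xist, edgeR called H2-K1, H2-D1 and B2m, where it called 205 of all 10379 genes.

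In PC and IC no member was called in the main fit. H2-K1 in PC was at 1104, 1069 and 1221 (WT) against 3546, 1244 and 1741 (KO) CPM (log2 fold change 0.96, adjusted p 0.1098) and in IC at 533, 535 and 575 (WT) against 1995, 677 and 684 (KO) CPM (log2 fold change 1.01, adjusted p 0.214). In both classes KO replicate 1 was the highest library, and the other KO libraries lay above WT by less, without overlap. No share of all genes without overlap is given for these classes. edgeR called 0 of 8 members in PC (2.96% of all genes) and 0 of 7 in IC (0.627% of all genes), with 4 and 3 at an unadjusted p under 0.05, and DESeq2 called 0 in both. In TAL, H2-K1 was at 382, 447 and 377 (WT) against 618, 347 and 358 (KO) CPM (log2 fold change 0.13, adjusted p 0.781), and in DCT at 439.6, 471 and 501 (WT) against 876, 326 and 379 (KO) CPM (log2 fold change 0.19, adjusted p 0.878). KO replicate 1 was the highest library in both, and KO replicates 2 and 3 were below each WT library. With both libraries that carried Xist left out, H2-K1 was at 0.41 (adjusted p 0.638) in PC and at 0.34 (adjusted p 0.513) in IC. B2m in PC was at 1.31 (adjusted p 0.0765) in the main fit. With all libraries kept and a block for those that carried Xist, edgeR called it, where it called 349 of all 10895 genes. Leukocyte markers moved with genotype in PC and IC. In PC the neutrophil markers summed to 0.364 to 1.06 (WT) against 6.46 to 43.2 (KO) CPM and the monocyte markers to 1.09 to 4.68 (WT) against 12.9 to 58.1 (KO) CPM, and in IC the neutrophil markers summed to 0.199 to 0.914 (WT) against 0.971 to 12.7 (KO) CPM and the markers of conventional dendritic cells of type 2 to 2.93 to 4.37 (WT) against 5.06 to 5.98 (KO) CPM, each without overlap. Those of type 1 in IC went the other way, at 13.8 to 20.1 (WT) against 10.7 to 13.1 (KO) CPM, also without overlap. The part of all these markers was not tested.

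**Figure D4:**
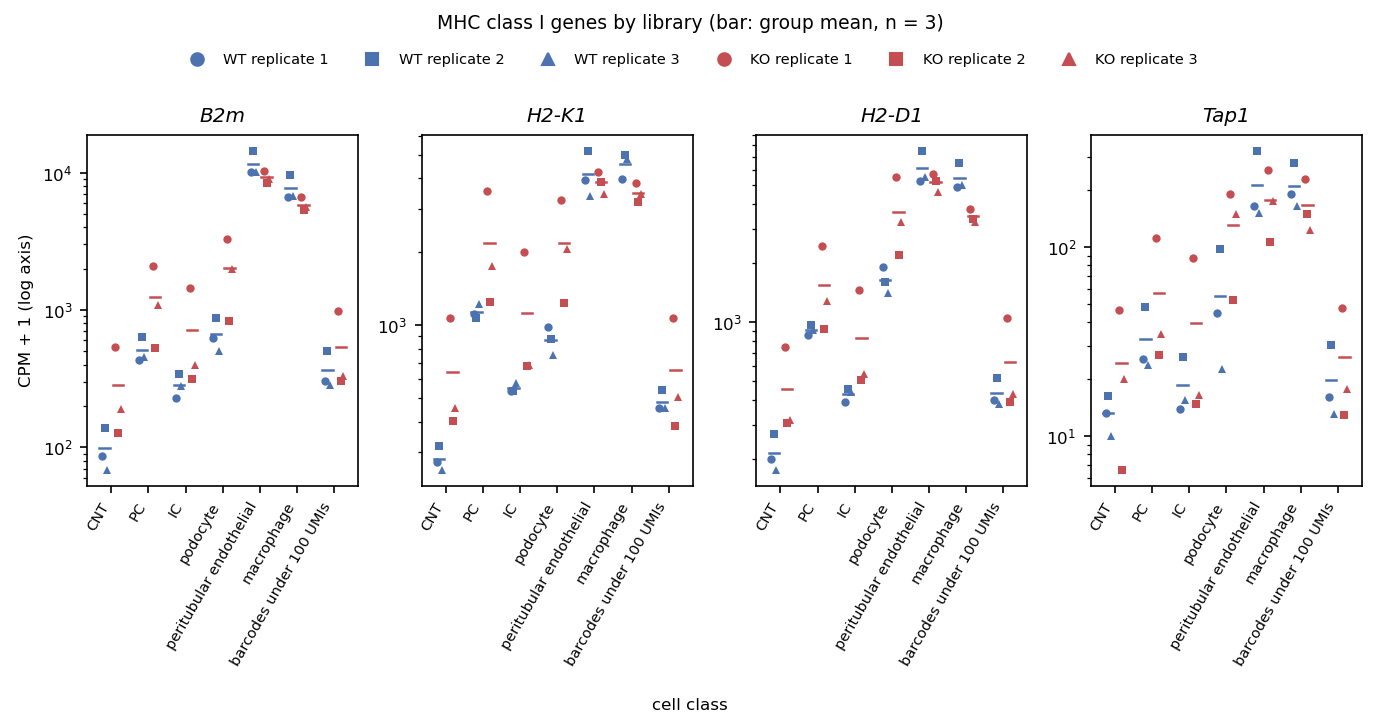
CPM + 1 (log axis) of 4 class I genes in 6 cell classes and in barcodes under 100 UMIs, 1 point per library (blue WT, red KO; shape gives the replicate number) with the group mean as a bar. KO replicate 1 is the highest point in CNT, PC, IC and podocytes and in the barcodes under 100 UMIs, while WT replicate 2 is the highest in peritubular endothelium and macrophages.

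In endothelium and macrophages no class I member was called. B2m in peritubular endothelium was at 10141, 14407 and 10042 (WT) against 10314, 8443 and 9023 (KO) CPM (log2 fold change −0.34, adjusted p 0.727), with WT replicate 2 the highest. In macrophages H2-D1 was at 4888, 6512 and 5009 (WT) against 3781, 3374 and 3272 (KO) CPM (edgeR log2 fold change −0.56, SE 0.17, adjusted p 0.205) and Nlrc5 at 57.9, 88.7 and 63.8 (WT) against 36.8, 22.4 and 36.2 (KO) CPM (edgeR log2 fold change −1.08, SE 0.34, adjusted p 0.233). Each KO library lay below each WT library for both, as it did for B2m, H2-K1, H2-Ab1 and H2-Eb1, 6 of the 10 members, where 9.47% of all genes did. No test passed. edgeR called 0 of 10 in macrophages (0.344% of all genes), 2 had an unadjusted p under 0.05 and DESeq2 called 0. Without both libraries that carried Xist H2-D1 was at −0.44 (adjusted p 0.542) and Nlrc5 at −0.99 (adjusted p 0.603). In T cells H2-K1 was at 6249, 6462 and 6694 (WT) against 3929, 5981 and 6396 (KO) CPM (log2 fold change −0.22, adjusted p 0.9604), with overlap. Stromal and mesangial cells had 2834, 8009.9 and 3141 (WT) against 3254, 2379.7 and 4462 (KO) CPM of B2m, with WT replicate 2 far above the rest.

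Over all retained cells H2-D1 was at 994, 1156 and 857 (WT) against 2485, 1219 and 1117 (KO) CPM (log2 fold change 0.68, adjusted p 0.297) and Cd74 at 665, 433 and 295 (WT) against 544, 567 and 227 (KO) CPM (log2 fold change −0.06, adjusted p 0.962). edgeR called 0 of 10 members in this sum (1.07% of all genes), 2 had an unadjusted p under 0.05, and DESeq2 called 0. The sum moves with the classes kept. Macrophages made up 2.23 ± 0.709% of the retained WT cells and 2.08 ± 0.767% of the KO cells (SD, n = 3; exact permutation p 0.600), B cells 0.696 ± 0.324% and 0.377 ± 0.289% (exact permutation p 0.300). T cells were 3.15 ± 0.935% in WT and 1.53 ± 0.815% in KO, and neutrophils 0.345 ± 0.313% and 2.26 ± 1.14%, each without overlap (exact permutation p 0.1, two-sided, the smallest possible).

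**Figure D5:**
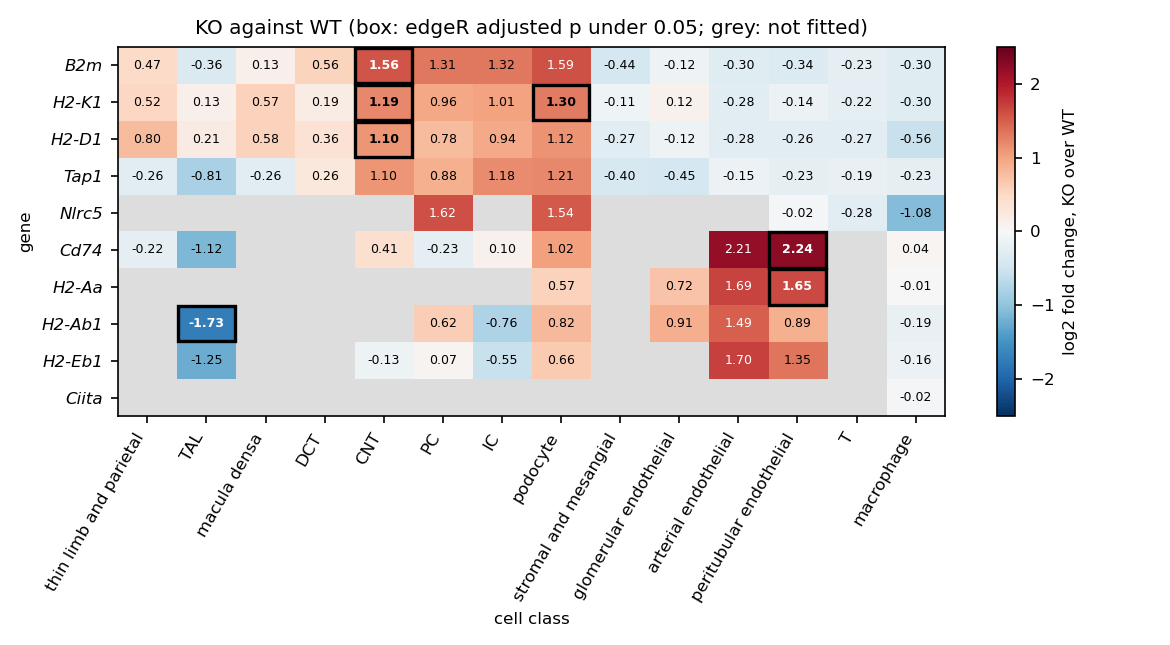
Log2 fold change of KO over WT (colour and number) for the 10 member genes (rows) in the 14 classes tested (columns), from UMIs summed per library, n = 3 per group. Boxes mark the 7 values with an edgeR adjusted p under 0.05, and grey marks genes too low to fit. Class II values are positive in the endothelial columns and near 0 in macrophages. All class I values fitted are positive in CNT, PC, IC, podocytes and DCT, as are 3 of 4 in macula densa and in thin limb and parietal cells.

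Other genes of the pathway were read from the same fits. Of 20 class I partners (further heavy chains, Tap2, Tapbp, the immunoproteasome and peptide loading genes), 1 of 236 gene and class tests was higher in KO and 0 lower at an adjusted p under 0.05 (1.52% of all gene tests in these classes), with 99 fold changes above 0 and 137 below. The call was H2-Q7, a nonclassical class I heavy chain, in PC, at 7.65, 9.85 and 10.8 (WT) against 89.2, 11.7 and 24.98 (KO) CPM (edgeR log2 fold change 2.22, SE 0.53, adjusted p 0.0452). The call was lost without WT replicate 1, at 2.06 (adjusted p 0.1196), WT replicate 2, at 2.24 (adjusted p 0.142), WT replicate 3, at 2.36 (adjusted p 0.103), or KO replicate 1, at 1.08 (adjusted p 0.174). It was also lost in DESeq2 (adjusted p 0.149), with no mitochondrial limit (0.0577), without cells holding a leukocyte UMI (0.0577) and without both libraries that carried Xist, at 1.10 (adjusted p 0.412). The gene has near copies in the H2-Q family. Of the 14 class II partners H2-Ea was not analysed here, and of 34 tests on the others 0 were higher and 0 lower. Of these tests 9 had an unadjusted p under 0.05 and DESeq2 called 0. Of 17 regulators, 1 of 192 tests was higher and 1 lower. Both were Ifngr1, which encodes the ligand-binding chain of the interferon gamma receptor. In podocytes it was at 213, 199 and 174 (WT) against 105, 95.2 and 101 (KO) CPM, lower without overlap (edgeR log2 fold change −0.98, SE 0.10, adjusted p 0.00142), and the call held in every other fit made (adjusted p 5.76e-13 to 0.0155). In TAL it was at 5.37, 5.75 and 5.05 (WT) against 11.2, 8.84 and 8.23 (KO) CPM (edgeR log2 fold change 0.79, SE 0.19, adjusted p 0.0365), a call lost without each library in turn (adjusted p 0.0617 to 0.139) and at 0.73 (adjusted p 0.2098) without both libraries that carried Xist.

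The remaining classes gave no call in the main edgeR fit or in DESeq2. These were thin limb and parietal cells (0 of 5 members, 2 at an unadjusted p under 0.05, 0.0224% of all genes called), macula densa (0 of 4, 2 and 1.83%), DCT (0 of 4, 0 and 1.44%), stromal and mesangial cells (0 of 4, 0 and 0.0531%) and T cells (0 of 5, 0 and 0%). The log2 fold change of H2-D1 was 0.80 (adjusted p 0.406) in thin limb and parietal cells and 0.58 (adjusted p 0.232) in macula densa.

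By class, the median log2 fold change of the class I partners ran from −0.37 in arterial endothelial cells (0 of 18 above 0), −0.31 in peritubular endothelial cells (3 of 18 above 0) and −0.27 in glomerular endothelial cells (3 of 18 above 0) to 0.14 in PC (15 of 18 above 0), 0.26 in podocytes (13 of 18 above 0), 0.32 in CNT (11 of 16 above 0) and 0.39 in IC (15 of 18 above 0). It was −0.31 in stromal and mesangial cells, −0.26 in T cells, −0.21 in TAL, −0.15 in macrophages, and −0.05 to 0.09 in thin limb and parietal cells, macula densa and DCT. The median of all genes was −0.01 to 0.01 in these classes. In peritubular endothelium that of the regulators was −0.07 (4 of 10 above 0).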

How the data were processed

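Single cells of renal cortex from 3 WT and 3 KO mice were captured on the BD Rhapsody system. The authors aligned reads to mm10 and deposited raw UMI counts per gene and barcode, with no filter on cells, from which all values were computed. They name Scanpy 1.8 for their own clustering. Barcodes with 500 to 60000 UMIs, 200 to 8000 genes and at most 50% mitochondrial UMIs were retained. The automatic doublet threshold marked under 0.5% of barcodes in every library, so the 6% with the highest doublet scores were removed instead. Cells were clustered in scanpy 1.11.5 (2000 variable genes, 30 components, resolution 1) without the members and their partners and named by markers. UMI counts were summed per library and class and tested with edgeR 4.0.16 (quasi-likelihood, TMM, filterByExpr with a minimum count of 10, Benjamini-Hochberg over all genes of a class), for classes with at least 20 cells per library, and with DESeq2 1.42.0 as an alternative. Adjusted p-values without another tool named are from edgeR. Levels are CPM within a class. Replicate numbers did not pair libraries across groups. All 10 members, partner genes with an adjusted p under 0.05, and the 5 genes most like H2-K1 and H2-Ab1 were to be named, of which 1 is not reported here. The members, lists and rules were chosen with earlier results of these data known. RefSeq promoters (GRCm38.p6) were matched by symbol.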

Additional observations from a re-analysis of the deposited data

Results flagged for a closer look

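The difference between KO and WT in 4 class II genes differed between summed endothelium and macrophages by a test of the difference itself, the interaction of genotype and class in edgeR, blocked on the mouse. The log2 fold change in the summed endothelium minus that in macrophages was 2.09 for Cd74, 1.76 for H2-Aa, 1.43 for H2-Ab1 and 1.72 for H2-Eb1. The endothelial side is a sum of 3 classes that was added after seeing the data. Peritubular endothelium, the class richest in class II of the 3, had a mean share of 3.17% of retained cells in WT and 8.38% in KO. The mean shares of glomerular (4.65 against 7.36%) and arterial endothelium (5.24 against 6.66%) were higher in KO too. Whether the make-up of the sum plays a part in these differences was not tested. The same difference against TAL was 3.38 for Cd74, 2.93 for H2-Aa, 3.00 for H2-Ab1 and 2.84 for H2-Eb1, but class II genes in TAL were at background level and H2-Aa was not fitted there alone, so these values measure no genotype effect in TAL. Without both libraries that carried Xist, 3 of the 4 differences from macrophages kept an adjusted p under 0.05, H2-Ab1 being the exception at 0.0831, and 4 of the 4 differences from TAL did. With doublets kept 0 of the differences from TAL were called.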

How the results depend on the processing

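The 34 results followed through the alternatives gave 543 further values, of which 541 kept their direction and 427 their side of the threshold, 70 lost a call and 44 gained one. Of the member genes within classes 7 were called, against 4 in DESeq2, 40 without the count filter, 15 with a block for the libraries that carried Xist, 1 at a mitochondrial limit of 30%, 4 with classes from marker scores, and 1 to 16 with each library left out in turn. Of the partner genes 3 were called, against 1, 42, 12, 2 and 5 in the same order, and 1 to 5 with each library left out, the lowest without KO replicate 1 and the highest without WT replicate 2 or KO replicate 2. The differences of endothelium from TAL called for 4 members went to 1 at the 30% limit and 0 with doublets kept, and those from macrophages were called for 3 to 5 members in every alternative run. The signs turned for H2-Ab1 in TAL with doublets kept (log2 fold change 0.0718) and for the H2-Aa difference of endothelium from TAL at the 30% limit (−2.89). At that limit, and without cells holding a leukocyte UMI, H2-Ab1 in TAL could not be fitted. The share of peritubular endothelium was 5.21 percentage points higher in KO, 7.799 at the 30% limit and 2.32 with no limit, and the cause of these changes was not tested. With a replicate block 9 member and 3 partner calls were made, but same-numbered libraries did not deviate together (correlations -0.243 to 0.214 over 15 sums, none with every pair over 0.1 or with every library closest to its own number). The planned removal of 6% of barcodes as doublets in every library is what was done, and keeping doublets and leaving the libraries with Xist out of the interaction were added after seeing the data. Classes of few cells and class II genes in epithelium are limited by UMI counts.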
